A study of Mus musculus with 16 samples.

Results

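Stromal matrix glycoproteins and progenitor markers are described here through 10 genes, Mfap5, Ltbp4, Dcn, Lum, Dpt, Postn, Thbs2, Fstl1, Sfrp2 and Thy1, out of 17097 genes measured. They were listed by name, selected on earlier results of these same arrays, in which several differed between the groups. Each was read from its brightest probe set by mean over the 16 arrays. A total of 3 members (Mfap5, Thbs2 and Fstl1) had a choice of probe sets and 7 had a single probe set. The arrays hold RNA of cells taken with CD11b beads, the labels also naming the macrophage antigen encoded by Adgre1, from collagenase-digested fat of mice aged 19 to 21 weeks. The 4 groups of 4 pools are KO-LysM visceral fat (KO VAT), KO-LysM subcutaneous fat (KO SAT), WT visceral fat (WT VAT) and WT subcutaneous fat (WT SAT), with 2 pools of each on day 1 and 2 on day 2. The knockout is named LysM-Sucnr1-/- and the control Sucnr1flox/flox, so the control also carries the floxed alleles. Cre is driven by the LysM promoter, which is active in myeloid cells, and is carried by the knockout alone, so that Cre and the deletion cannot be told apart. Each array holds a pool of animals whose number the labels do not give, p-values measure the spread between these pools, and the letters NCD in the labels are not spelled out there.

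The extracellular matrix of fat is made mainly by fibroblasts and adipocyte progenitors. Collagen fibrils are its scaffold, small leucine-rich proteoglycans set how thick the fibrils grow, microfibrils hold elastic fibres and stored TGF-beta, and matricellular proteins tune how cells attach. Macrophages are not known as a main source of these proteins. In bulk RNA such as this, fewer stromal cells and less RNA per stromal cell cannot be told apart.

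Differences were tested with limma over all 17097 genes at once, with day as a term, and a gene passed where its Benjamini-Hochberg adjusted p was under 0.05. The 4 arrays per group limit the precision. A background level was set at 4.78, the 95th percentile of the means of 41 olfactory receptor genes, in log2 units as all values here. Of the members, 9 exceeded it on all 16 arrays, whereas Lum did so on 4 of 4 arrays in KO VAT, 4 of 4 in KO SAT, 2 of 4 in WT VAT and 0 of 4 in WT SAT, so that differences of Lum against WT SAT have no exact size. Macrophage markers were present: of 15 macrophage identity genes only Cd163 was under the background level in all groups. Their mean level on an array ran from 7.22 to 7.79 in KO VAT, 7.67 to 8.17 in KO SAT, 7.23 to 8.16 in WT VAT and 7.82 to 8.18 in WT SAT.

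Some groups stood apart. Sucnr1 itself was under background in every group, at 3.53 ± 0.08 in KO VAT, 3.55 ± 0.09 in KO SAT, 3.52 ± 0.12 in WT VAT and, over the 4 pools as each of these means with its SD, 3.54 ± 0.03 in WT SAT, and does not check the genotype. Lyz2, the gene of the LysM promoter and a macrophage marker, was at 9.99 ± 0.33 in KO VAT and 10.48 ± 0.32 in KO SAT, against 10.57 ± 0.15 in WT VAT and 11.12 ± 0.21 in WT SAT, and fell by 0.58 in KO VAT relative to WT VAT (adjusted p = 0.0156) and by 0.64 in KO SAT relative to WT SAT (adjusted p = 0.00525). Emx2, a homeobox gene of body position, was at 8.50 ± 0.16 in KO VAT and 5.24 ± 0.15 in KO SAT, against 5.45 ± 0.13 in WT VAT and 6.78 ± 0.30 in WT SAT. Its depot difference therefore ran in opposite directions in the genotypes, as did that of Akr1c18, at 10.18 ± 0.14 in KO VAT and 5.26 ± 0.20 in KO SAT, against 4.91 ± 0.18 in WT VAT and 8.70 ± 0.32 in WT SAT. Svs4, a secretion of the seminal vesicle, an organ that lies beside visceral fat, averaged 3.76 ± 0.07 in KO VAT and 11.44 ± 0.32 in KO SAT, against 3.79 ± 0.06 in WT VAT and 4.76 ± 1.70 in WT SAT. Its WT SAT arrays ran from 3.79 to 7.30. The mean of the seminal vesicle list was 5.50 in WT SAT pool 2, against 4.29 to 4.52 in the other WT SAT pools. Whether the depot labels hold in both genotypes was not tested. The labels were kept as given. Each genotype's depot difference is given by itself, and a genotype by depot term that compares them is given later. Directions between depots and between genotypes below, and the sign and size of that term, rest on the labels. The interquartile range of an array also differed: 2.36 to 2.62 in KO VAT, 2.37 to 2.63 in KO SAT, 2.01 to 2.54 in WT VAT and 2.12 to 2.29 in WT SAT.

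The 10 members showed 3 patterns over the groups. In 6 of them (Mfap5, Dcn, Lum, Dpt, Postn and Fstl1) WT SAT was lowest, with each of its arrays below all others. Ltbp4 was high in KO SAT and WT VAT and low in KO VAT and WT SAT. Thbs2, Sfrp2 and Thy1 were the opposite, with KO VAT and WT SAT on top. The plot of the members on each array shows these orders.

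**Figure D1:**
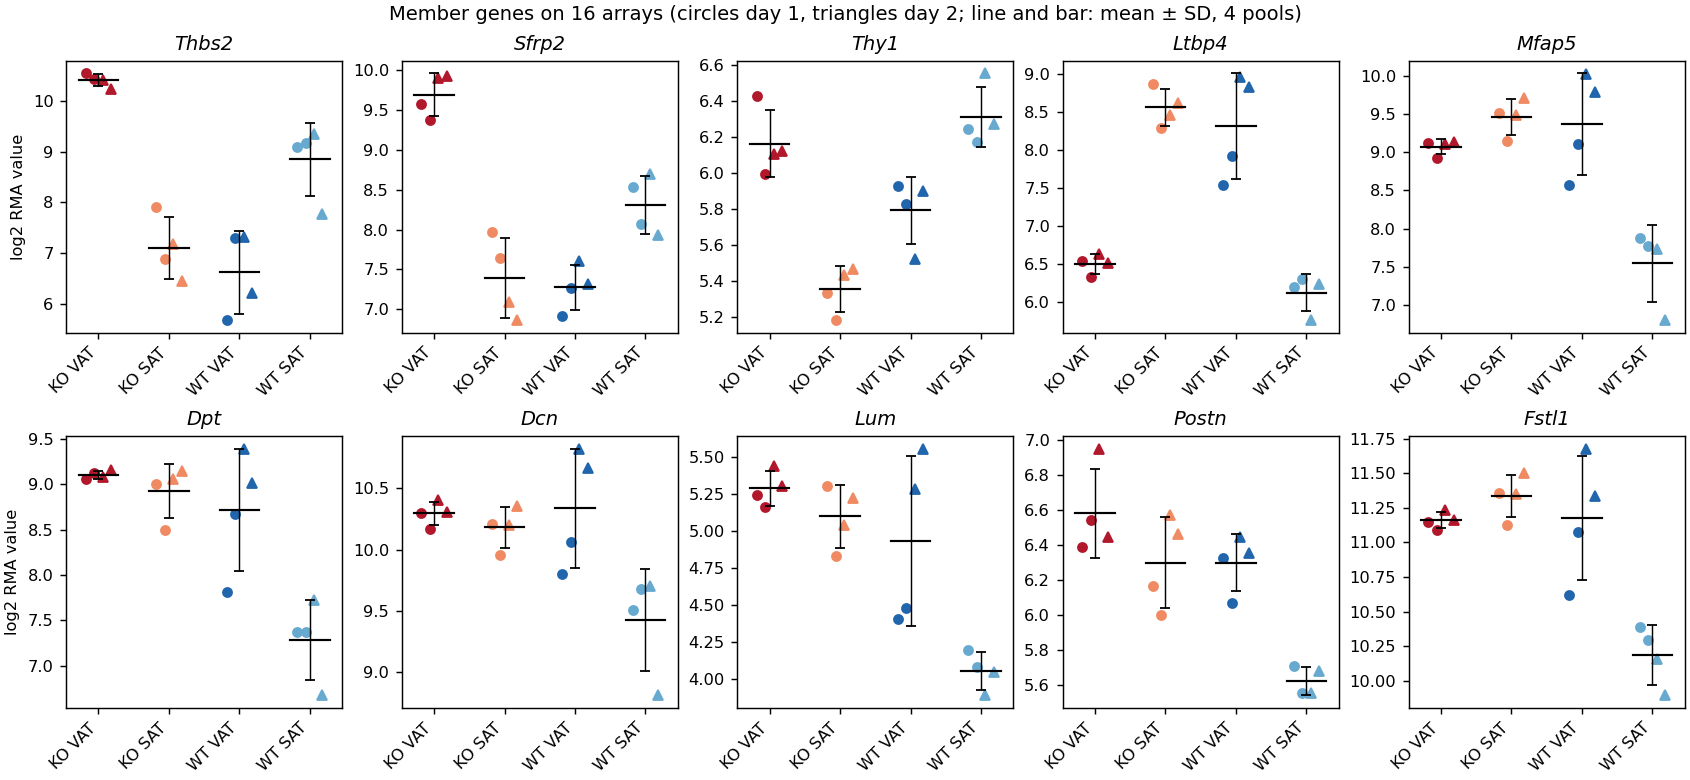
Log2 RMA value (vertical axis) of each of the 10 genes on 16 arrays, by group (horizontal axis). Circles are day 1 pools, triangles day 2 pools, horizontal lines group means and bars the SD of 4 pools. Thbs2 stands at 10.24 to 10.54 in KO VAT, above every other array, and Mfap5, Dpt, Lum, Postn and Fstl1 have all 4 WT SAT arrays below every other array.

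Among the microfibril genes, Ltbp4 encodes a protein that keeps latent TGF-beta in the matrix and helps elastic fibres assemble. It stood at 6.54, 6.33, 6.63 and 6.52 in KO VAT (pools 1 to 4) and at 8.87, 8.30, 8.46 and 8.62 in KO SAT. In wild type it stood at 7.54, 7.92, 8.97 and 8.83 in WT VAT, and at 6.20, 6.30, 5.77 and 6.24 in WT SAT. Neither genotype had any overlap between depots, and the directions were opposite. Ltbp4 fell by 2.06 ± 0.24 in KO VAT relative to KO SAT (4.16-fold, adjusted p = 1.03e-04) and rose by 2.19 ± 0.24 in WT VAT relative to WT SAT (4.55-fold, adjusted p = 1.5e-04; SE of the limma fit, n = 4 pools per group throughout). With the depot held and the genotypes compared, it rose by 2.43 ± 0.24 in KO SAT relative to WT SAT (adjusted p = 1.96e-05) and fell by 1.81 ± 0.24 in KO VAT relative to WT VAT (adjusted p = 3.18e-04). On day 1 alone and day 2 alone the KO VAT minus KO SAT change of Ltbp4 was -2.15 and -1.97, and the WT VAT minus WT SAT change was 1.48 and 2.89.

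Mfap5, a glycoprotein of fibrillin microfibrils that also marks a class of adventitial fibroblasts, had the same order of group means as Ltbp4. Its KO VAT mean (9.07), however, lay near those of KO SAT (9.46) and WT VAT (9.37) and far above WT SAT (7.55). Mfap5 stood at 9.12, 8.92, 9.11 and 9.13 in KO VAT and at 9.51, 9.14, 9.49 and 9.71 in KO SAT. It stood at 8.56, 9.10, 10.02 and 9.78 in WT VAT, against 7.88, 7.78, 7.73 and 6.80 in WT SAT. All 4 WT SAT arrays were below the other 12. Mfap5 rose by 1.82 ± 0.27 in WT VAT relative to WT SAT (3.53-fold, adjusted p = 0.00176) and by 1.92 ± 0.27 in KO SAT relative to WT SAT (3.77-fold, adjusted p = 4.28e-04). Its change was -0.39 ± 0.27 in KO VAT relative to KO SAT (adjusted p = 0.711) and -0.30 ± 0.27 in KO VAT relative to WT VAT (adjusted p = 0.431), neither of which passed. In the first of these the arrays did not overlap, and in the fit to the 8 knockout arrays alone the same change passed (adjusted p = 0.0248).

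Decorin (Dcn) and lumican (Lum) are small leucine-rich proteoglycans that bind collagen fibrils; decorin also binds TGF-beta. Their genes neighbour each other on mouse chromosome 10 in the RefSeq table of GRCm38.p6. Dcn stood at 10.30, 10.17, 10.40 and 10.31 in KO VAT and 10.21, 9.96, 10.20 and 10.35 in KO SAT. In wild type it stood at 9.80, 10.06, 10.82 and 10.66 in WT VAT, against 9.51, 9.68, 9.70 and 8.81 in WT SAT. WT SAT was below the other groups with no overlap, the closest arrays being 9.80 in WT VAT against 9.70 in WT SAT. Dcn rose by 0.91 ± 0.21 in WT VAT relative to WT SAT (adjusted p = 0.0288), and it rose by 0.75 ± 0.21 in KO SAT relative to WT SAT (adjusted p = 0.0148). The WT VAT relative to WT SAT call was lost without WT SAT pool 3 (0.98), WT VAT pool 3 (0.77) or WT VAT pool 4 (0.83). Without WT SAT pool 4 the KO SAT minus WT SAT change of Dcn was 0.50 and still passed. With the interquartile range of each array as a term, the KO SAT minus WT SAT change of Dcn was -0.07 (adjusted p = 0.856).

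WT SAT was lowest for Lum, too. It ran from 5.16 to 5.44 in KO VAT and 4.83 to 5.30 in KO SAT, and from 4.41 to 5.56 in WT VAT, against 3.89 to 4.20 in WT SAT. The WT VAT pools split by day, with 4.41 and 4.48 on day 1 and 5.28 and 5.56 on day 2. Lum rose by 1.04 ± 0.19 in KO SAT relative to WT SAT (adjusted p = 0.00173), and it rose by 0.88 ± 0.19 in WT VAT relative to WT SAT (adjusted p = 0.0205). The WT VAT relative to WT SAT call was lost without WT SAT pool 3 (0.77), WT SAT pool 4 (0.83) or WT VAT pool 3 (0.80). With array spread as a term, the KO SAT minus WT SAT change of Lum was 0.44 and did not pass (adjusted p = 0.195). Neither proteoglycan passed between the knockout depots, at 0.11 ± 0.21 for Dcn (adjusted p = 0.998) and 0.19 ± 0.19 for Lum (adjusted p = 0.899), or between KO VAT and WT VAT, at -0.04 ± 0.21 for Dcn (adjusted p = 0.894) and 0.35 ± 0.19 for Lum (adjusted p = 0.184). Without WT VAT pool 4 the last of these, for Lum, was 0.53 and passed (adjusted p = 0.0377), and without WT VAT pool 3 or pool 4 the KO VAT minus WT VAT change of Dcn was 0.10 or 0.04.

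Dermatopontin (Dpt) is a small matrix protein that binds decorin and speeds collagen fibril assembly. It ran from 9.06 to 9.16 in KO VAT and 8.49 to 9.15 in KO SAT, and from 7.81 to 9.38 in WT VAT, against 6.67 to 7.72 in WT SAT. WT SAT was again below every other array. Dpt rose by 1.64 ± 0.26 in KO SAT relative to WT SAT (3.12-fold, adjusted p = 8.19e-04) and by 1.44 ± 0.26 in WT VAT relative to WT SAT (2.71-fold, adjusted p = 0.00689). With array spread as a term, the KO SAT minus WT SAT change was 0.73 and did not pass (adjusted p = 0.0655). Its other changes were 0.18 ± 0.26 for KO VAT relative to KO SAT (adjusted p = 0.977) and 0.38 ± 0.26 for KO VAT relative to WT VAT (adjusted p = 0.288).

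Periostin (Postn), a matricellular protein that links cells to collagen and rises in fibrosis, ran from 6.39 to 6.95 in KO VAT and 6.0002 to 6.57 in KO SAT, and from 6.07 to 6.45 in WT VAT, against 5.55 to 5.70 in WT SAT. Postn rose by 0.68 ± 0.12 both in KO SAT relative to WT SAT (adjusted p = 0.00142) and in WT VAT relative to WT SAT (adjusted p = 0.00534). It was at 0.28 ± 0.12 in KO VAT relative to KO SAT (adjusted p = 0.278) and 0.28 ± 0.12 in KO VAT relative to WT VAT (adjusted p = 0.102). Neither of these passed, and the arrays overlapped in each.

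Thrombospondin 2 (Thbs2), a matricellular inhibitor of blood vessel growth, and Sfrp2, a secreted protein that binds Wnt ligands, moved together across the groups. The 250 bases before their RefSeq transcription starts are shown with those of Ltbp4, which moved the other way. Capitals mark matches, on either strand, to the TATA box (TATAAA), the CAAT box (CCAAT), the GC box (GGGCGG), the AP-1 motif (TGANTCA) or the TEAD motif (GGAATG). The windows are chr17:14694263-14694512 on the minus strand for Thbs2, chr3:83766071-83766320 on the plus strand for Sfrp2 and chr7:27337613-27337862 on the minus strand for Ltbp4 (first of 3 listed starts), all in GRCm38.p6.
Thbs2: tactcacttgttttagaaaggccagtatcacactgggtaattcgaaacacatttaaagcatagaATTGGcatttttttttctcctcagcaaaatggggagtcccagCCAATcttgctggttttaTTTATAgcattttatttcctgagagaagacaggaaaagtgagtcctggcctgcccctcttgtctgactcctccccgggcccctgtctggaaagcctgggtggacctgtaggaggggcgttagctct
Sfrp2: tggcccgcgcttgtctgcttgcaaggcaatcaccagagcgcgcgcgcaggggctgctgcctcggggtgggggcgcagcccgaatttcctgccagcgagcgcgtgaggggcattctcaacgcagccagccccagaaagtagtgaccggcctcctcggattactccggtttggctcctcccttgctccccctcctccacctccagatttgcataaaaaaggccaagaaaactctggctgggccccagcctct
Ltbp4: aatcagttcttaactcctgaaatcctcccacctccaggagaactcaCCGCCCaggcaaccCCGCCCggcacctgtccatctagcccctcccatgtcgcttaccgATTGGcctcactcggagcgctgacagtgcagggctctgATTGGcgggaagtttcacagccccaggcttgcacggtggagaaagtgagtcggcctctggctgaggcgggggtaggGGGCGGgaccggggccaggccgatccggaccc
Thbs2 had 2 matches to CCAAT and 1 to TATAAA, Ltbp4 had 2 to CCAAT and 3 to GGGCGG, and Sfrp2 had none of the motifs, so that no motif searched was shared by Thbs2 and Sfrp2. Of 32851 promoter windows of this length, 12.4% held TATAAA, 33.8% CCAAT, 32.7% GGGCGG, 6.75% TGANTCA and 12.6% GGAATG. The GC content was 46.8% for Thbs2, 63.6% for Sfrp2 and 64.4% for Ltbp4. Windows were matched for 6 of 10 members; Mfap5, Dcn, Lum and Thy1 had none in the table.

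Thbs2 stood at 10.54, 10.42, 10.42 and 10.24 in KO VAT and at 7.91, 6.88, 7.19 and 6.46 in KO SAT. It stood at 5.68, 7.29, 7.33 and 6.22 in WT VAT, against 9.09, 9.18, 9.35 and 7.78 in WT SAT. The knockout depots did not overlap, nor did the wild-type depots, and the directions were opposite. Thbs2 rose by 3.30 ± 0.39 in KO VAT relative to KO SAT (9.82-fold, adjusted p = 1.33e-04) and fell by 2.22 ± 0.39 in WT VAT relative to WT SAT (4.65-fold, adjusted p = 0.00657). It rose by 3.77 ± 0.39 in KO VAT relative to WT VAT (13.7-fold, adjusted p = 4.67e-05) and fell by 1.74 ± 0.39 in KO SAT relative to WT SAT (adjusted p = 0.00609). In that last comparison KO SAT pool 1, at 7.91, was above WT SAT pool 4, at 7.78. On day 1 and day 2 alone the KO VAT minus KO SAT change of Thbs2 was 3.09 and 3.51, and the WT VAT minus WT SAT change -2.65 and -1.79.

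Sfrp2 stood at 9.57, 9.37, 9.90 and 9.92 in KO VAT and at 7.97, 7.64, 7.09 and 6.86 in KO SAT. It stood at 6.92, 7.27, 7.60 and 7.31 in WT VAT, against 8.53, 8.07, 8.69 and 7.94 in WT SAT. KO VAT was above every other array. Sfrp2 rose by 2.30 ± 0.24 in KO VAT relative to KO SAT (4.93-fold, adjusted p = 3.4e-05) and by 2.42 ± 0.24 in KO VAT relative to WT VAT (5.34-fold, adjusted p = 2.73e-05). It fell by 0.92 ± 0.24 in KO SAT relative to WT SAT (adjusted p = 0.0117), where the arrays overlapped. It fell by 1.03 ± 0.24 in WT VAT relative to WT SAT (adjusted p = 0.0316), a call lost without WT SAT pool 1 (-0.95), WT SAT pool 3 (-0.89), WT VAT pool 2 (-1.03) or WT VAT pool 4 (-1.05). On days 1 and 2 alone the KO VAT minus KO SAT change of Sfrp2 was 1.67 and 2.93.

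Skeletal muscle genes were likewise higher in KO VAT and WT SAT than in KO SAT and WT VAT. The mean level of 10 muscle genes ran from 5.54 to 6.14 in KO VAT and 4.77 to 4.98 in KO SAT, and from 4.85 to 5.21 in WT VAT, against 7.08 to 7.88 in WT SAT. Of these genes 6 rose and 0 fell in KO VAT relative to KO SAT, 0 rose and 9 fell in WT VAT relative to WT SAT, 0 rose and 10 fell in KO SAT relative to WT SAT, and 6 rose and 0 fell in KO VAT relative to WT VAT. In these comparisons, in that order, 4.32%, 2.84%, 36.7% and 15.9% of all genes passed. The calcium pump gene Atp2a1 rose by 2.13 in KO VAT relative to KO SAT and fell by 3.87 in WT VAT relative to WT SAT. The muscle list was highest in WT SAT, whereas Thbs2 and Sfrp2 were highest in KO VAT. The part of muscle-associated cells in the Thbs2 and Sfrp2 differences was not tested.

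Fstl1, a secreted glycoprotein related to follistatin that modulates BMP signalling, followed the order of Mfap5. It ran from 11.09 to 11.23 in KO VAT and 11.13 to 11.50 in KO SAT, and from 10.62 to 11.68 in WT VAT, against 9.90 to 10.39 in WT SAT. It rose by 1.15 ± 0.17 in KO SAT relative to WT SAT (2.22-fold, adjusted p = 5.03e-04) and by 0.99 ± 0.17 in WT VAT relative to WT SAT (1.99-fold, adjusted p = 0.00428). Its change was -0.18 ± 0.17 in KO VAT relative to KO SAT (adjusted p = 0.884) and -0.02 ± 0.17 in KO VAT relative to WT VAT (adjusted p = 0.947), which was 0.14, 0.01 or 0.01 without WT VAT pool 3, WT VAT pool 4 or KO VAT pool 4.

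Thy1 encodes the surface protein CD90, which marks fibroblasts and progenitors and, in mice, T cells as well. It stood at 6.43, 5.99, 6.10 and 6.12 in KO VAT and at 5.33, 5.18, 5.43 and 5.47 in KO SAT. It stood at 5.93, 5.83, 5.52 and 5.90 in WT VAT, against 6.24, 6.17, 6.55 and 6.27 in WT SAT. Thy1 rose by 0.81 ± 0.12 in KO VAT relative to KO SAT (adjusted p = 9.76e-04) and fell by 0.96 ± 0.12 in KO SAT relative to WT SAT (adjusted p = 1.72e-04). It fell by 0.52 ± 0.12 in WT VAT relative to WT SAT (adjusted p = 0.0316), a call lost without WT SAT pool 1 (-0.53), pool 3 (-0.43) or pool 4 (-0.54) or WT VAT pool 2 (-0.53) or pool 3 (-0.41). Its rise of 0.37 ± 0.12 in KO VAT relative to WT VAT sat at the threshold (adjusted p = 0.0499). With pool number as a replicate block its adjusted p was 0.0576, and the call was also lost without WT VAT pool 1 (0.42), pool 2 (0.39) or pool 3 (0.26), or without KO VAT pool 1 (0.27), pool 2 (0.42), pool 3 (0.39) or pool 4 (0.39).

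T cell markers moved with Thy1. The mean level of 12 T cell genes ran from 4.98 to 5.38 in KO VAT and 4.72 to 4.99 in KO SAT, and from 5.01 to 5.18 in WT VAT, against 5.62 to 5.92 in WT SAT, and Cd5, Cd28, Zap70 and Trat1 were under the background level in all groups. Of the 12, 3 rose and 0 fell in KO VAT relative to KO SAT, 0 rose and 6 fell in WT VAT relative to WT SAT, and 1 rose and 11 fell in KO SAT relative to WT SAT. The shares of all genes that passed were 4.32%, 2.84% and 36.7%, in that order. Cd3e, a chain of the T cell receptor complex, rose by 0.81, fell by 1.73 and fell by 2.00 in these comparisons. In KO VAT relative to WT VAT, where Thy1 was at 0.37, 0 of the 12 passed in limma, against 15.9% of all genes. Of the 12, 3 had an unadjusted p under 0.05 there. The part of T cells in the Thy1 differences was not tested.

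**Figure D2:**
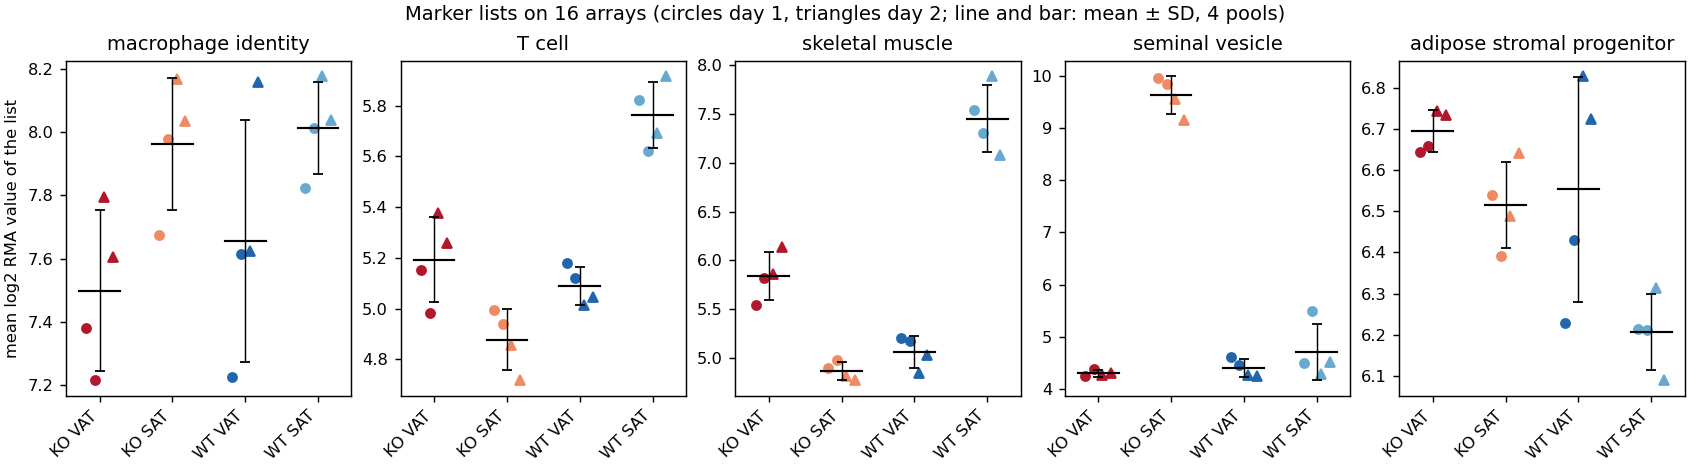
Mean log2 RMA value of 5 marker lists (vertical axis) on each array by group (horizontal axis), with circles for day 1, triangles for day 2, and lines and bars for the mean ± SD of 4 pools. The T cell and skeletal muscle lists are highest in WT SAT, the seminal vesicle list stands at 9.15 to 9.96 in KO SAT, and macrophage identity runs from 7.22 to 7.79 in KO VAT, below the 7.82 to 8.18 of WT SAT.

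Between the knockout depots, 4 members passed, against 4.32% of all genes, 3 higher (1.92% of all genes) and 1 lower (2.39%) in KO VAT. The other 6 members did not pass. The arrays of 5 members did not overlap, with KO VAT above for 3 and below for 2, as for 5.23% and 5.03% of all genes. The median member change was 0.18, against 0.0024 for all 17097 genes, and was 0.10 without KO SAT pool 2. Macrophage identity genes moved here too: 7 of 15 fell and 0 rose in KO VAT, among them Cd68 by 0.64, Spi1 by 0.67 and Cd14 by 0.95. The mean level of that list was 0.46 lower in KO VAT than in KO SAT (exact permutation test, two-sided, p = 0.0571, adjusted p = 0.102 over 16 such tests; the smallest possible p was 0.0286). Its part in the member differences was not tested. The seminal vesicle list, at 4.24 to 4.39 in KO VAT against 9.15 to 9.96 in KO SAT, moved with this comparison too, and its part was not tested either.

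Between the wild-type depots all 10 members passed, against 2.84% of all genes, 7 higher (1.52% of all genes) and 3 lower (1.32%) in WT VAT. The depots did not overlap for any of the 10, as for 1.64% of all genes with WT VAT above and 2.16% with WT VAT below. The members were proposed with earlier results of these data known, so nothing is read from the count. The median member change was 0.89, against -0.02 for all genes. When the fit used the 8 wild-type arrays alone, 1 member (Ltbp4) passed, and without WT SAT pool 3 the number was 6. In the fit to the 8 arrays, 60 of all genes passed, against 486 in the reported fit. On day 1 alone 3 members passed, where 199 of all genes did, and on day 2 alone 10, where 4222 of all genes did. The sign was the same on both days for all 10. On the WT VAT arrays the interquartile range was 2.01 and 2.15 on day 1 and 2.50 and 2.54 on day 2, and the day 1 pair also held the lower values of 8 members, Mfap5, Ltbp4, Dcn, Lum, Dpt, Postn, Fstl1 and Sfrp2, the last of which was lower in WT VAT than in WT SAT. With array spread as a term all 10 members still passed, where 1502 of all genes did.

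**Figure D3:**
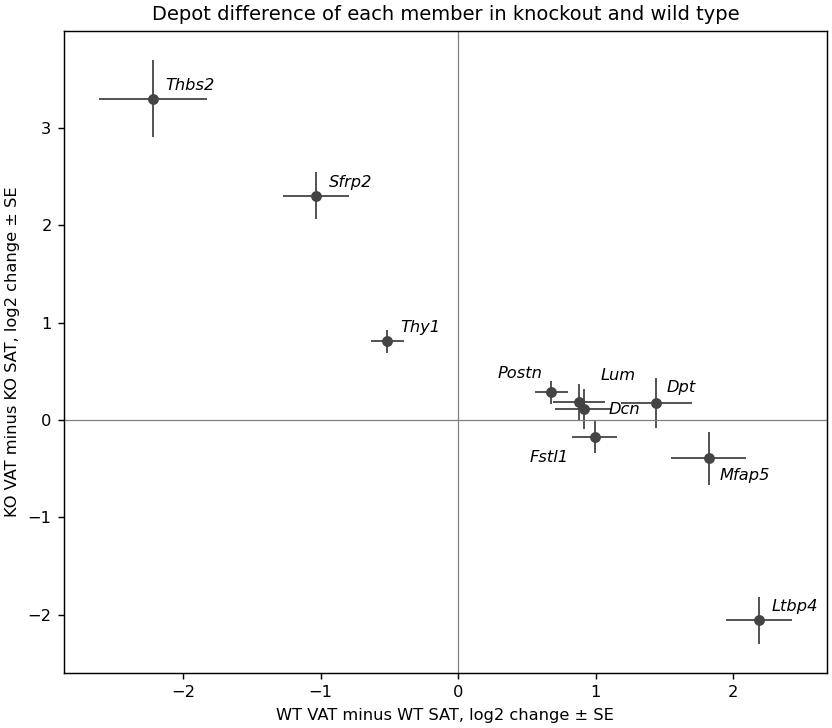
Log2 change between depots in wild type (WT VAT minus WT SAT, horizontal axis) and in knockout (KO VAT minus KO SAT, vertical axis) for each of the 10 genes, with points for the limma estimates and bars for their SE. Thbs2, Sfrp2 and Thy1 lie at upper left and Ltbp4 at lower right, while the other 6 rose in wild type and did not pass in knockout.

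The depot difference itself, with the depots as labelled, changed with genotype for 6 members. The term is (KO VAT minus WT VAT) minus (KO SAT minus WT SAT), which equals the knockout depot difference minus the wild-type one. It was positive for Thbs2 at 5.52 ± 0.56 (adjusted p = 2.16e-05), Sfrp2 at 3.33 ± 0.34 (adjusted p = 2.32e-05) and Thy1 at 1.32 ± 0.17 (adjusted p = 2.27e-04). It was negative for Ltbp4 at -4.24 ± 0.34 (adjusted p = 1.6e-06), Mfap5 at -2.21 ± 0.38 (adjusted p = 0.00273) and Fstl1 at -1.17 ± 0.24 (adjusted p = 0.00849). The 6 calls stand against 4.22% of all genes, the 3 positive ones against 2.10% and the 3 negative ones against 2.12%. Dpt at -1.26 ± 0.36 (adjusted p = 0.0714), Dcn at -0.80 ± 0.29 (adjusted p = 0.197), Lum at -0.69 ± 0.26 (adjusted p = 0.222) and Postn at -0.40 ± 0.17 (adjusted p = 0.287) did not pass. On day 1 alone 4 members passed, where 330 of all genes did, against 722 in the reported fit. Mfap5 at -1.31 (adjusted p = 0.057) and Fstl1 at -0.62 (adjusted p = 0.262) were no longer among the members that passed. On day 2 alone 9 members passed, where 1904 of all genes did. Without WT VAT pool 1, Dcn (-0.96) and Dpt (-1.54) passed as well. With the second probe set, Mfap5 was at -1.09 and did not pass (adjusted p = 0.108).

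In subcutaneous fat all 10 members passed between genotypes, 7 higher and 3 lower in KO SAT than in WT SAT. Passing was common in this comparison, with 36.7% of all genes called, 16.7% higher and 20.0% lower. The arrays of 8 members did not overlap, as for 16% of all genes (2737) with KO SAT above and 20.0% with KO SAT below. The median member change was 0.90, against -0.05 for all genes. With arrays centred on their medians the members still numbered 10, and 3592 of the 5319 genes that then passed were higher, where 2859 of 6279 were higher without centring. With array spread as a term 7 members passed and the median member change was 0.49, and 270 of 1308 passing genes were higher. The interquartile range was 0.31 larger in KO SAT than in WT SAT (exact permutation test, two-sided, p = 0.0286, the smallest possible, adjusted p = 0.0653 over 16 tests; 0.21 on day 1 and 0.42 on day 2). All 8 genes of the seminal vesicle list rose here as well, and its part in the member differences was not tested.

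In visceral fat 4 members passed between genotypes, with Thbs2, Sfrp2 and Thy1 higher and Ltbp4 lower in KO VAT than in WT VAT, against 15.9% of all genes, 10.2% higher and 5.76% lower. The arrays did not overlap for 4 members, as for 6.48% of all genes with KO VAT above and 5.64% with KO VAT below. The median member change was 0.32, against -0.05 for all genes. Of 15 macrophage identity genes 3 fell and 0 rose here, namely Lyz2, Fcgr1 (by 0.55) and Cd68 (by 0.39). Lyz2 is also the gene of the promoter that drives Cre, which the knockout alone carries. The part of these genes in the member differences was not tested. Without WT VAT pool 1 the median member change was 0.16. The days differed for the members that did not pass: 5 of 10 members (Mfap5, Dcn, Lum, Dpt and Fstl1) were higher in KO VAT on day 1 and lower on day 2. Lum, for example, was at 0.76 on day 1 and -0.05 on day 2, and Mfap5 at 0.19 and -0.78. The interquartile range of KO VAT exceeded that of WT VAT by 0.33 on day 1 and by 0.05 on day 2. With array spread as a term 6 members passed, where 1849 of all genes did. Mfap5 (-0.95), Dcn (-0.54) and Fstl1 (-0.39) now passed as lower in KO VAT, and Thy1 (0.40) was no longer past the threshold.

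**Figure D4:**
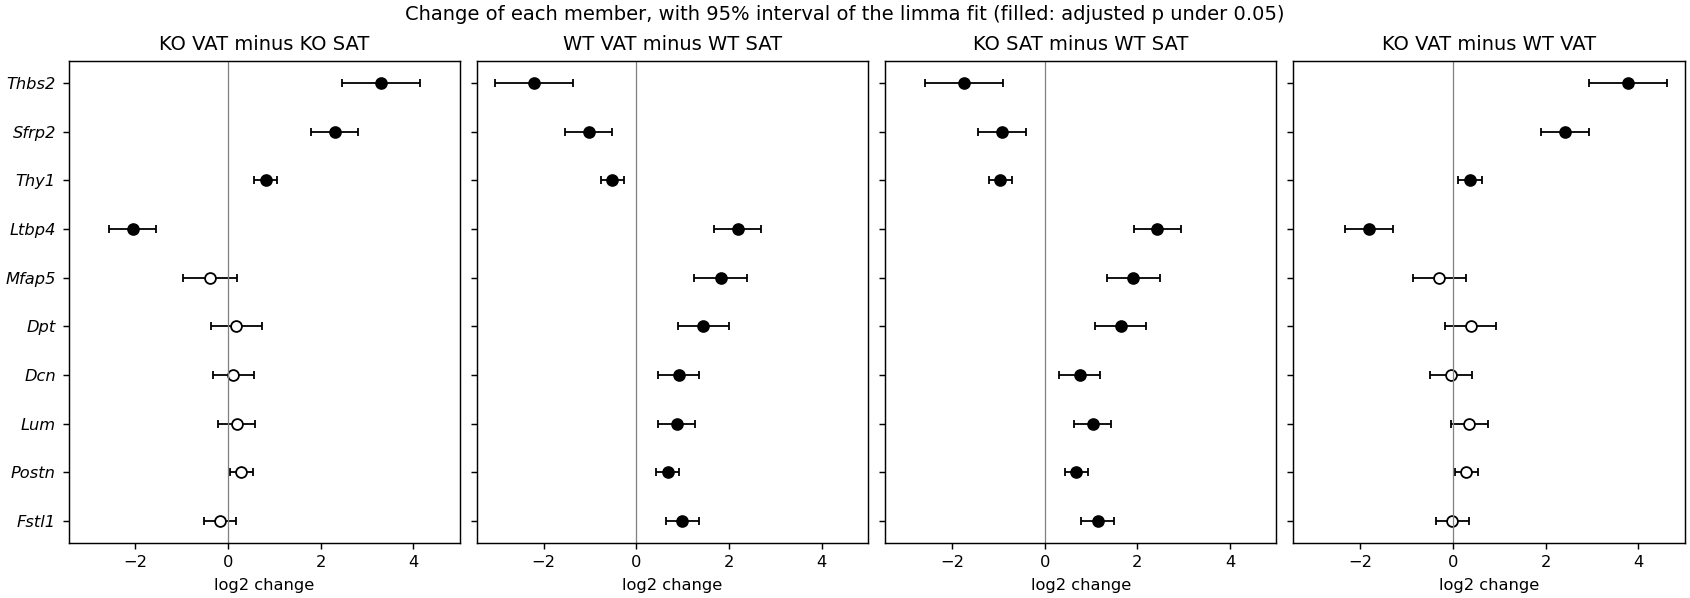
Log2 change (horizontal axis) of each gene (vertical axis) in 4 comparisons, one panel each, with points for the limma estimates, filled where the adjusted p was under 0.05, and bars for 95% intervals of the fit. All 10 points are filled for WT VAT minus WT SAT and for KO SAT minus WT SAT, and 4 are filled in each of the other panels.

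Other matrix genes of the same classes were counted in the same comparisons. Of all genes, 1.92% passed as higher and 2.39% as lower in KO VAT relative to KO SAT. In WT VAT relative to WT SAT these shares were 1.52% and 1.32%. They were 16.7% and 20.0% in KO SAT relative to WT SAT, and 10.2% and 5.76% in KO VAT relative to WT VAT. The counts of each list below stand against these shares. Of 16 microfibril and elastic fibre genes, 0 rose and 2 fell in KO VAT relative to KO SAT, 4 rose and 0 fell in WT VAT relative to WT SAT, 7 rose and 3 fell in KO SAT relative to WT SAT, and 0 rose and 5 fell in KO VAT relative to WT VAT. Fbln5, an elastic fibre organiser, and Ltbp2, a microfibril protein related to Ltbp4, moved in the direction of Ltbp4 in all 4 comparisons. Fbln5 fell by 1.49 in KO VAT relative to KO SAT and rose by 1.76 in WT VAT relative to WT SAT, and its genotype by depot term was -3.25 (adjusted p = 3.81e-05). Ltbp2 fell by 1.34 and rose by 1.59 in the same comparisons, with a term of -2.93 (adjusted p = 1.97e-04).

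Among 10 further small leucine-rich proteoglycans, 5 were under the background level in all groups. Of the 10, 0 rose and 1 fell in KO VAT relative to KO SAT, 1 rose and 0 fell in WT VAT relative to WT SAT, 1 rose and 2 fell in KO SAT relative to WT SAT, and 1 rose and 1 fell in KO VAT relative to WT VAT. In these comparisons, in that order, 4.32%, 2.84%, 36.7% and 15.9% of all genes passed. Biglycan (Bgn), the closest relative of decorin, fell by 0.81 in KO VAT relative to KO SAT (adjusted p = 0.0293) and rose by 1.09 in WT VAT relative to WT SAT (adjusted p = 0.00735). Its genotype by depot term was -1.90 (adjusted p = 7.56e-04), whereas those of Dcn and Lum did not pass. Bgn also rose by 1.17 in KO SAT relative to WT SAT, where Chad fell by 0.25 and Fmod by 0.27, and fell by 0.73 in KO VAT relative to WT VAT, where Ogn rose by 0.36. Of 17 matricellular and adhesive genes, 0 rose and 1 fell in KO VAT relative to KO SAT, 3 rose and 0 fell in WT VAT relative to WT SAT, 7 rose and 3 fell in KO SAT relative to WT SAT, and 0 rose and 2 fell in KO VAT relative to WT VAT. Smoc2, a calcium-binding matricellular protein, fell by 1.62 in KO VAT relative to KO SAT (adjusted p = 0.0101). It rose by 1.63 in WT VAT relative to WT SAT, opposite in both comparisons to Thbs2.

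Of 10 other secreted Wnt and BMP modulators, 6 were under the background level and 0 passed in limma between depots in either genotype. At an unadjusted p under 0.05 there were 3 in KO VAT relative to KO SAT and 1 in WT VAT relative to WT SAT. Sfrp1, a relative of Sfrp2, fell by 0.83 in KO VAT relative to WT VAT (adjusted p = 0.00253), where Sfrp2 rose. Of 17 adipose stromal progenitor markers, 2 rose and 2 fell in KO VAT relative to KO SAT, 2 rose and 0 fell in WT VAT relative to WT SAT, 8 rose and 2 fell in KO SAT relative to WT SAT, and 2 rose and 2 fell in KO VAT relative to WT VAT. The shares of all genes that passed were 4.32%, 2.84%, 36.7% and 15.9%, in that order. Igfbp6, which binds insulin-like growth factors, rose by 1.25 in KO VAT relative to KO SAT (adjusted p = 6.26e-05). Eng fell there by 0.52 (adjusted p = 0.0117) and Tcf21, under background in all groups, by 0.43 (adjusted p = 0.0148). Pdgfra, the receptor that marks adipocyte progenitors, rose by 0.95 in KO SAT relative to WT SAT (adjusted p = 0.00186). In the genotype by depot term, 1 of the 17 markers passed as positive and 6 as negative, against 2.10% and 2.12% of all genes.

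Collagens and the genes that mature them were counted likewise, against the same shares of all genes (36.7% in KO SAT relative to WT SAT). Of 14 collagen chains, 2 rose and 0 fell in KO VAT relative to KO SAT, with Col3a1 at 1.18 (adjusted p = 0.00205) and Col1a1 at 0.72 (adjusted p = 0.0455), and 0 passed in WT VAT relative to WT SAT in limma, where 6 had an unadjusted p under 0.05. Between genotypes 3 collagens rose and 1 fell in KO SAT relative to WT SAT, with Col5a2 at 1.19, Col4a2 at 0.85 and Col4a1 at 0.46, and 2 rose and 0 fell in KO VAT relative to WT VAT, with Col3a1 at 0.90 and Col5a3 at 0.72. Of 17 secretory and collagen processing genes, 2 rose and 0 fell in KO VAT relative to KO SAT, 1 rose and 0 fell in WT VAT relative to WT SAT, 7 rose and 2 fell in KO SAT relative to WT SAT, and 3 rose and 0 fell in KO VAT relative to WT VAT. Pcolce, which enhances procollagen cleavage, rose by 1.13 in KO VAT relative to KO SAT (adjusted p = 1.03e-04). Plod2, a collagen lysyl hydroxylase, rose by 1.40 in WT VAT relative to WT SAT (adjusted p = 0.021).

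The second probe sets of 3 members gave the same direction in the depot comparison of wild type. The lower probe set of Thbs2 ran from 9.32 to 9.48 in KO VAT and 5.25 to 6.29 in KO SAT, and from 4.90 to 5.94 in WT VAT, against 6.65 to 7.63 in WT SAT, the same order as the main one. The lower probe set of Mfap5 had WT SAT lowest, at 6.87 to 7.15, against 7.23 or more on the other arrays, and was at 0.07 in KO VAT relative to KO SAT and 0.37 in KO VAT relative to WT VAT, where the main probe set had negative values.

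The genes most like the members were found by Pearson correlation over the 16 arrays with the mean of the members' z-scores, among 10386 named genes above background that were not members. They were Bcat1 (r = 0.98), a branched-chain amino acid transaminase, Cdr2l (r = 0.98), Tnxb (r = 0.98), the matrix protein tenascin X, Mmp2 (r = 0.98), a gelatinase, C1s1 (r = 0.97), a complement protease, and Rhoj (r = 0.97), a small GTPase. The 16 arrays fall into the 4 groups, and within groups, on deviations from group means, r was between 0.93 and 0.96 for these genes. Arrays share their normalization and their differences in spread, so these values are a description. Ltbp4 ran opposite to Thbs2, Sfrp2 and Thy1 over the groups, so their z-scores partly cancel in the mean, which need not stand for each member. Bcat1 averaged 9.40 in KO VAT, 8.65 in KO SAT, 8.75 in WT VAT and 7.55 in WT SAT, and thus was lowest in WT SAT as 6 of the members were.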

How the data were processed

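The authors deposited log2 values made with RMA in the affy package, per the submitters' processing notes; versions are not given in the sources used here. RMA subtracts background, equalises distributions of single probes and summarises probes into probe sets; the deposited probe set values still differed in interquartile range between arrays (2.01 to 2.63). RMA compresses changes of dim genes. The table holds 45141 probe sets, of which 28898 name 1 gene, 551 several and 15588 none in the platform annotation, and 104 are controls. The probe set with the highest mean stood for each of 17097 genes. Groups came from the labels. limma 3.58.1 in R 4.3.3 fitted group and day to all 16 arrays, with Benjamini-Hochberg adjustment over all genes, and was tested on simulated data. Single values per array were compared by exact permutation tests.

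The members and all gene lists were chosen with earlier results of these data known, so no test here is independent support for them. Named genes are the members, up to 3 genes of smallest p per list and comparison, 6 most alike genes and 5 label checks. Deviations of arrays with equal pool number correlated at 0.17 to 0.59 between KO VAT and KO SAT and 0.18 to 0.52 between KO VAT and WT VAT, but at -0.48 to 0.47 between WT VAT and WT SAT and -0.40 to 0.42 between KO SAT and WT SAT. Those with unequal pool number ran from -0.55 to 0.50, -0.67 to 0.67, -0.58 to 0.55 and -0.43 to 0.54, in that order. Unequal pool numbers include pools of the other day, so these ranges do not settle whether pools were paired by number. Day, probe set, filter, scaling, array spread and weights, moderation and left-out arrays were varied. Promoter sequences are RefSeq's for GRCm38.p6.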

Additional observations from a re-analysis of the deposited data

Results flagged for a closer look

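Single pools stood apart from the rest of their group, by Dixon's test of the gap to the nearest array, in 3 of 40 groups of 4 arrays tested; chance gives about 1 in 20. Mfap5 was at 8.92 in KO VAT pool 2, against 9.11 to 9.13 in the other KO VAT pools. WT SAT pool 4 was low for Mfap5, at 6.80 against 7.73 to 7.88 in the other WT SAT pools, and for Thbs2, at 7.78 against 9.09 to 9.35.

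The depot difference changed with genotype for 6 members, by the interaction term of the limma fit. This term was -4.24 for Ltbp4, -2.21 for Mfap5 and -1.17 for Fstl1, and it was 5.52 for Thbs2, 3.33 for Sfrp2 and 1.32 for Thy1. For Ltbp4, Thbs2, Sfrp2 and Thy1 the arrays of the depots did not overlap in either genotype and the order of the depots was opposite. Emx2 and Akr1c18 were likewise highest in KO VAT and next highest in WT SAT, as Thbs2 and Sfrp2 were. The depots are those of the labels, and whether these hold in both genotypes was not tested.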

How the results depend on the processing

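The members called in WT VAT relative to WT SAT numbered 10 in the reported fit, 3 on day 1 alone, 1 with only the 8 arrays compared and 6 to 10 when an array was left out (6 without WT SAT pool 3). Calls over all genes in these fits, in that order, numbered 486, 199, 60 and 231 to 1711. In KO SAT relative to WT SAT 6 members passed on day 1 alone, where 582 of all genes did, against 6279 in the reported fit. The median member change of WT VAT minus WT SAT was 0.42 on day 1 and 1.46 on day 2, and that of the genotype by depot term -0.19 and -1.31. The median of KO VAT minus WT VAT was -0.067 on day 2 and -0.096 with array spread as a term, which also gave a median of 0.49 in KO SAT minus WT SAT. The cause was not tested. Single members turned round mainly in KO VAT minus WT VAT, where none of them had passed: Mfap5 0.19, Dcn 0.30 and Fstl1 0.28 on day 1, Lum -0.048 and Dpt -0.085 on day 2, Mfap5 0.038 with the mean of its probe sets and 0.37 with the second, Dcn 0.020 and Fstl1 0.045 with centred arrays, and Lum -0.015 and Dpt -0.18 with array spread as a term. When an array was left out, that change ran from -0.20 to 0.10 for Dcn and from -0.19 to 0.14 for Fstl1. Elsewhere Mfap5 was at 0.067 in KO VAT minus KO SAT with the second probe set, and Dcn at -0.066 in KO SAT minus WT SAT with array spread as a term.

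With pool number as a replicate block 3 members passed in KO VAT relative to WT VAT, since Thy1 did not (adjusted p = 0.0576), and no other member's call changed; a random block by genotype and pool changed none. Counts over all genes ranged, over all alternatives, from 199 to 2203 in KO VAT relative to KO SAT (738 reported), 60 to 4222 in WT VAT relative to WT SAT (486), 582 to 8451 in KO SAT relative to WT SAT (6279), 331 to 5376 in KO VAT relative to WT VAT (2724) and 330 to 1904 for the genotype by depot term (722). Without the lowest 40% of genes the median of all genes in KO SAT minus WT SAT was 0.13 and 2583 of 4047 calls were higher, against 2859 of 6279 reported. Lum was under background on all WT SAT arrays, so its sizes against that group are not exact, and 4 pools a group limit all of these values.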

Other observations

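Markers of other cell types that fat can hold were counted in the same way. Of 12 endothelial genes, 5 rose and 0 fell in KO SAT against WT SAT, where 36.7% of all genes passed, among them Cdh5, the vascular cadherin, by 2.21 (adjusted p = 0.00514 in limma) and Tek, the angiopoietin receptor, by 1.64 (adjusted p = 1.73e-04). The mean level of the list ran from 5.07 to 6.01 in KO VAT and 6.01 to 6.31 in KO SAT, and from 5.26 to 6.06 in WT VAT, against 5.26 to 5.55 in WT SAT. Of 8 adipocyte genes, 3 rose and 1 fell in the same comparison, and Fabp4, a fatty acid carrier that macrophages make too, rose by 1.37 (adjusted p = 3.59e-04). Of 8 smooth muscle and pericyte genes 1 rose and 1 fell there. Of 10 mesothelial genes, 6 were under background, 1 rose and 2 fell in KO VAT against KO SAT, and Krt18, a keratin of simple epithelia, fell by 1.25 (adjusted p = 4.32e-05). Of 16 genes of body position, 9 rose and 1 fell in KO VAT against KO SAT, where 4.32% of all genes passed, whereas 1 rose and 1 fell in WT VAT against WT SAT, where 2.84% passed.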
